A study of Mus musculus with 4 samples.

Results

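Open chromatin was examined at 10 named genes of the immediate early and activator protein 1 (AP-1) class: Jun, Junb, Jund, Fos, Fosb, Fosl1, Fosl2, Atf3, Myc and Egr1. They were taken by name, out of 53734 gene records of GENCODE vM21 on chromosomes 1 to 19 and X, and all 10 had a peak in every library. Single-nucleus ATAC-Seq (scATAC-Seq) cuts accessible DNA with the Tn5 transposase, so the values are counts of cut sites and not of RNA. Hepatocytes came from livers of adult male C57BL/6J mice, given as 10 to 12 weeks old, after collagenase perfusion. There were 4 libraries, with 1 library per group: undamaged liver without surgery (PHx 0 h), and liver that was left to regenerate for 48, 72 or 96 h once part of it had been cut away by partial hepatectomy (PHx). The 0 and 48 h libraries each came from part of 1 hepatocyte preparation. No group has a second library, so no test across samples was possible, and every difference below compares 2 libraries and has no replicate check.

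As background, immediate early genes are switched on by signals that reach the cell, without new protein synthesis, through kinases such as ERK and JNK and through factors that already sit at their promoters. AP-1 is a pair of basic leucine zipper proteins, made within the Jun family or between a Jun and a Fos or ATF protein, that binds the palindromic sites named TRE and CRE. In liver, Jun, Fos, Myc and Egr1 RNA is known to be induced within the first hours after PHx, as hepatocytes leave quiescence, which is earlier than any regenerating library here.

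Levels are given as CPM: counts in every peak that touches the gene body or its 2000 bp upstream, summed over barcodes with at least 1000 counts and scaled to all peak counts of those barcodes. The 4 libraries held 3977, 3892, 4256 and 3224 such nuclei at 0, 48, 72 and 96 h, with 136582768, 62000846, 24724883 and 14935507 counts. Intervals are exact 95% Poisson intervals on the counts divided by 2, since most fragments are counted at both ends, and they cover counting error only. Peaks had been called in each library on its own, so the length of DNA that is summed differs between libraries: at 96 h the median log2 ratio of called length to 0 h over all genes was -1.07. Called length, or the level per kb of it, is therefore given beside the levels of named genes. Between 681 and 882 barcodes occurred in both libraries of a pair, though only 27 to 60 of them had 1000 counts in both; leaving out all barcodes of several libraries left the members' medians within counting error and their counts of 2-fold changes as they were. Summed levels cannot tell more open chromatin per nucleus from more nuclei that are open.

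The promoters of 5 members are shown, because their levels carry most of what follows and because their short motifs differ. RefSeq promoters of GRCm38.p6 were matched for 7 of the 10 members (Jun, Junb, Jund, Fos, Fosb, Fosl2 and Atf3). Each line gives the 150 bases before the RefSeq start, 5′ to 3′ on the gene's strand, with capitals for the motifs described next (the CRE variant, the CRE core, the CCAAT, TATA and GC boxes), read on either strand.
Jun, chr4:95052223-95052372, minus strand: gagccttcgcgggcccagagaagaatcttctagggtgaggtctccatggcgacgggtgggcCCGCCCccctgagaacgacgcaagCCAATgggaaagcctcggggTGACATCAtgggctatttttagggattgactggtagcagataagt
Junb, chr8:84978749-84978898, minus strand: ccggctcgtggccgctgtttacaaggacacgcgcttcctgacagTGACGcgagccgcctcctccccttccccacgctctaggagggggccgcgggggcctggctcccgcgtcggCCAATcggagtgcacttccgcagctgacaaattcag
Fos, chr12:85473740-85473889, plus strand: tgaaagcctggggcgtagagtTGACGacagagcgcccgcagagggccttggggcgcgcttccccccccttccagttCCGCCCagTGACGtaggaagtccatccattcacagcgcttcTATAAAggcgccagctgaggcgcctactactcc
Fosb, chr7:19310046-19310195, minus strand: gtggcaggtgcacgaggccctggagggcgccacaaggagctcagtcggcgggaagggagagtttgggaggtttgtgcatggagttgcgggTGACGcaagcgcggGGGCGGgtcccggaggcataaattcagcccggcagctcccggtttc
Atf3, chr1:191183334-191183483, minus strand: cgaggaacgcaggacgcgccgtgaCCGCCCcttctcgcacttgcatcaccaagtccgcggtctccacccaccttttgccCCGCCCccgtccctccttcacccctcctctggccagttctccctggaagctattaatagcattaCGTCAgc

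TGACG, the core shared by CRE sites, was found within 250 bases before the start in 4 of the 7 members (Junb, Fos, Fosb and Atf3) and in 17.9% of 27025 promoters of the same table. The Fos promoter held it at 2 places, 129 to 125 and 66 to 62 bases before the start, with a TATAAA at 33 to 28 bases. In Jun the CRE variant TGACATCA, known as a site for Jun and ATF2 pairs, lay 45 to 38 bases before the start, next to a CCAAT box at 65 to 61 bases; 3.02% of the promoters in the table hold that variant. The full TRE, TGACTCA, was in none of the 7 windows and in 4.43% of all promoters, and the full CRE, TGACGTCA, in none of the 7 and in 1.62%. The CArG box, the site of serum response factor, was in none of these windows of 250 bases and in 1.40% of all. A match or a missing match of these letters is a description only.

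Jun was among the 3 most open gene windows of all protein-coding genes with a peak, per kb of called peak, at every time. Jun encodes c-Jun, the main Jun partner in AP-1, and in liver it is known to be needed for full regeneration. Its levels at 0, 48, 72 and 96 h were 411, 454, 522 and 737 CPM, with intervals of 406 to 416, 447 to 462, 509 to 535 and 718 to 757. None of these intervals overlap, and each later library was higher than the one before. The single peak over the gene (chr4:95044637-95057374 at 0 h, mm10) spanned 12738, 13035, 11181 and 9099 bp, so the level per kb of called peak was 32.2, 34.9, 46.7 and 81.0 CPM. Among coding genes with a peak this ranked 3 of 16812, 3 of 17440, 2 of 17557 and 2 of 15969. Against 0 h these are log2 ratios of 0.15 (0.12 to 0.17), 0.34 (0.31 to 0.38) and 0.84 (0.80 to 0.88), short of 2-fold at all 3 times for the sum. Per kb the 96 h ratio was 1.33, and with binarised counts, where a peak counts once per nucleus, the ratios were 0.63, 1.52 and 1.97, past 2-fold at 72 and 96 h.

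In summed CPM the other Jun genes did not share this course. Junb encodes a Jun protein that often restrains c-Jun, and its window held 295 CPM at 0 h, 223 at 48 h, 158 at 72 h and 284 at 96 h. By the sum its lowest library was 72 h, with a log2 ratio to 0 h of -0.90 (-0.97 to -0.83), and its 96 h level (272 to 297) overlapped that at 0 h (291 to 299). The Junb peak shrank from 14018 bp to 9238, 8058 and 7371 bp, and in every library it also covered Prdx2. Per kb, Junb was at 21.0, 24.2, 19.7 and 38.6 CPM. With binarised counts its log2 ratios to 0 h were 0.38, 0.65 and 1.30, so the direction turned and 0 h became the lowest library.

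Jund, the member of the family that is abundant in resting cells, was highest at 0 h, at 483 CPM, and was at 351, 309 and 409.6 CPM later. Its called length fell from 31385 bp at 0 h to 24012, 10737 and 8140 bp, and at 0 h the peak also ran over Iqcn, Gm3336 and Pde4c. The 2 ways of counting gave opposite directions: the log2 ratio of 96 h to 0 h was -0.24 for the sum and 1.71 per kb. Binarised counts also turned it, to 0.55, 1.16 and 1.55 at 48, 72 and 96 h.

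**Figure D1:**
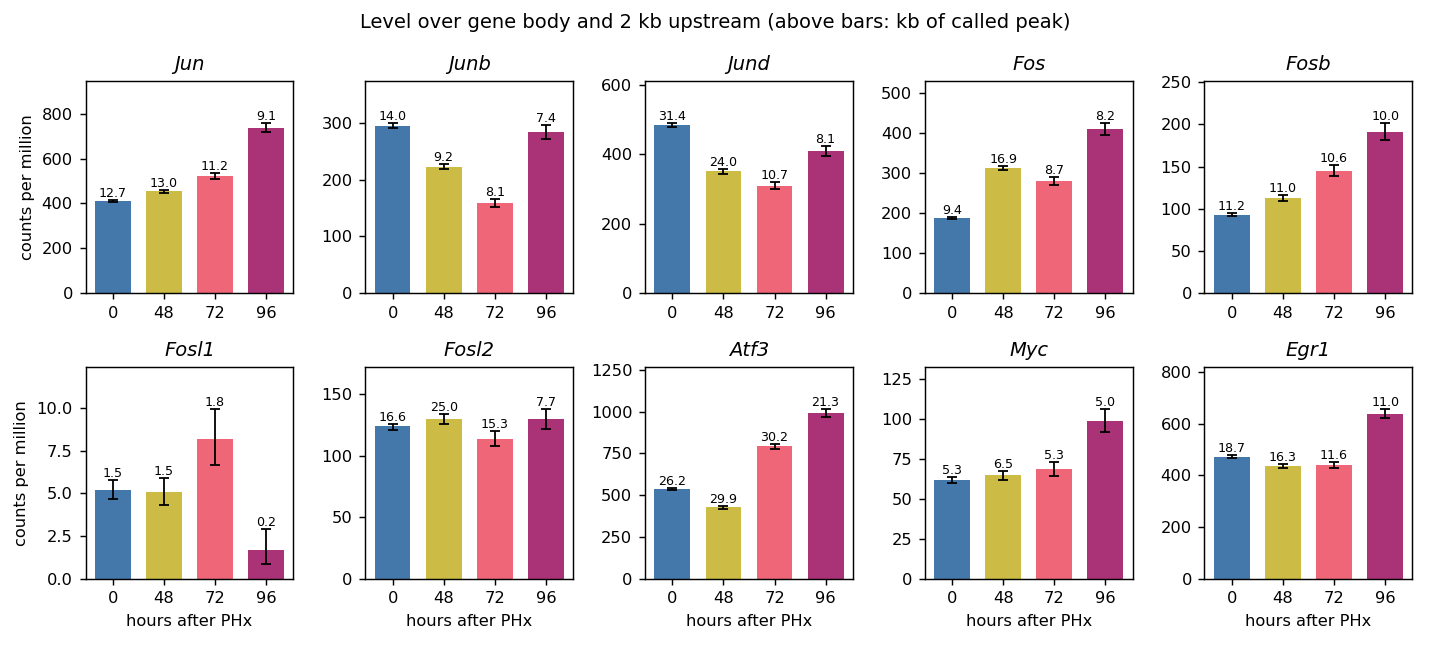
Level (CPM) over the gene body and 2 kb upstream in the 4 libraries (x axis, hours after PHx), with 1 bar per library, 95% counting intervals as error bars and the kb of called peak above each bar. Jun, Fosb and Myc were highest at 96 h and lowest at 0 h, Junb and Jund were lowest at 72 h, and Fosl1 stayed under 10 CPM.

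Fos and Fosb had the highest ratios of 96 h to 0 h among the members in summed CPM, though per kb Jund and Jun, and with binarised counts Jun, Atf3 and Egr1, were above both. Fos encodes c-Fos, the classic Fos partner of c-Jun. It was at 188, 312, 279 and 408 CPM in the same order of libraries (intervals 185 to 191, 306 to 318, 270.1 to 289 and 394 to 423), so all 3 regenerating libraries lay above undamaged liver. At 48 h the Fos peak was also much longer, 16878 bp against 9366 bp at 0 h, because it reached 14324 bp downstream of the start where the 0 h peak ended at 7109 bp. Per kb the 48 h level was thus 18.5 CPM against 20.1 at 0 h. At 72 and 96 h the peak was shorter again, at 8732 and 8186 bp, and the level per kb was 32.0 and 49.8 CPM. The log2 ratio to 0 h was 0.73 (0.69 to 0.77), 0.57 (0.51 to 0.62) and 1.11 (1.06 to 1.17), and at 96 h it exceeded that of 95.6% of 22464 genes.

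Fosb, a Fos relative that is likewise induced by growth signals, was at 93.1 CPM at 0 h, 113 at 48 h, 145 at 72 h and 191 at 96 h. Its called length stayed close, at 11170, 11009, 10604 and 10032 bp. Its intervals did not overlap between libraries (90.8 to 95.4, 109 to 116, 139 to 152 and 181 to 201), and the log2 ratio to 0 h went from 0.27 to 0.64 and 1.03 (0.95 to 1.12).

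The Fos-related genes Fosl1 and Fosl2 looked different from Fos and from each other. Fosl1, which encodes Fra-1, was close to the floor: 5.19 CPM at 0 h, 5.06 at 48 h, 8.17 at 72 h and 1.67 at 96 h. The last value rests on 25 counts (0.878 to 2.89 CPM) in 224 bp of peak that no longer covered the start, where 1545 bp were called at 0 h. Per kb it was 3.36 CPM at 0 h against 32.2 for Jun. Its log2 ratio at 96 h was -1.39 (-2.58 to -0.83) for the sum and 1.15 per kb, so its direction turned with called length.

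Fosl2, which encodes Fra-2, was at 124, 130.1, 114 and 129.6 CPM and had log2 ratios to 0 h of 0.07, -0.12 and 0.07. This flat course held for the sum only: its called length was 16599, 25046, 15328 and 7715 bp, and per kb the ratios were -0.52, -0.01 and 1.17. The peak over the start held 89.1, 71.2 and 77.4 CPM at 0, 48 and 72 h, in 7810, 8120 and 7602 bp. At 96 h the same stretch was called as 3 peaks of 5207 bp in all, with 10.4, 68.0 and 21.6 CPM from upstream to downstream, the middle one over the start. Their sum lies above the 0 h level. A peak about 20 kb downstream of the start, near the 3′ end of the gene record, held 21.0 CPM at 0 h, 20.2 at 72 h and 21.6 at 96 h; at 48 h it was fused into 1 peak of 15641 bp with 56.0 CPM.

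Atf3, a stress-induced ATF protein that pairs with Jun proteins, was at 537, 427, 792 and 992 CPM (intervals 531 to 542, 419.7 to 434, 777 to 808 and 969 to 1015). Per kb of called peak this was 20.5, 14.3, 26.3 and 46.6 CPM, which ranked 81, 228, 36 and 77 among coding genes with a peak. By the sum the 48 h library was below undamaged liver and both later ones above it, while binarised counts put all 3 above it (0.65, 1.65 and 1.91), and 72 h exceeded 48 h by a log2 ratio of 0.89 (0.85 to 0.93). Nearly all of this came from 1 broad peak of 24143 bp at 0 h, 22956 at 48 h, 24652 at 72 h and 20314 at 96 h. It covers the RefSeq start shown above and held 530.1, 407, 768 and 983 CPM. The 5′ end of the GENCODE gene record lies far upstream of that start. The promoter alone at this GENCODE start had no peak at 0 or 96 h. It held 5.40 CPM at 48 h and 6.15 CPM at 72 h. Its mean over the libraries was below the minimum of 5 CPM, so Atf3 did not pass for the promoter alone.

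Myc and Egr1 are the members outside AP-1. Myc encodes a growth and ribosome biogenesis factor; it was at 61.8, 64.6, 68.4 and 98.5 CPM (intervals 59.9 to 63.7, 61.8 to 67.5, 63.9 to 73.2 and 91.5 to 106). The 48 h interval overlapped those of its neighbours at 0 and 72 h, and only the 96 h library stood clear of the others. Its called length was 5307, 6536, 5268 and 4970 bp, and its log2 ratio to 0 h was 0.06, 0.15 and 0.67 (0.56 to 0.79). Per kb the ratios were -0.24, 0.16 and 0.77, so the sign at 48 h turned with the longer peak.

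Egr1, a zinc finger factor induced along the same ERK pathway as Fos, was at 472 CPM at 0 h, 436 at 48 h, 441 at 72 h and 638 at 96 h. Its middle libraries did not differ beyond their intervals (429 to 444 and 429 to 453). The peak went from 18725 to 16331, 11572 and 10957 bp, and per kb Egr1 ranked 20, 10, 5 and 12 among coding genes with a peak. The log2 ratio at 96 h was 0.43 (0.39 to 0.48), with 1.21 per kb. At 48 and 72 h it was -0.11 and -0.10 for the sum but 0.61 and 1.41 with binarised counts.

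Across the 10 members, all of which passed the mean of 5 CPM, the median log2 ratios to 0 h were 0.02, 0.25 and 0.55 for 48, 72 and 96 h in turn. Over all 22464 genes they were -0.04, -0.03 and 0.06. At 48 h no member was at least 2-fold higher or lower, where 6.41% and 2.56% of all genes were. At 72 h again none was, against 10.6% and 7.81%. At 96 h Fos and Fosb were at least 2-fold higher (5.94% of all genes) and Fosl1 was at least 2-fold lower (12.4%), and 7 of 10 members were above 0 h, as were 53.5% of all genes; the interval of Fosl2, one of the 7, included 0 (-0.03 to 0.16). Binarised counts gave another picture, with members' medians of 0.46, 1.02 and 1.43 and with 5 members at least 2-fold higher at 72 h and 7 at 96 h, where 6.79% and 4.19% of all genes were. Binarising counts a peak at most once per nucleus. The Jun peak, with 56103 counts over 3977 nuclei at 0 h and 11006 over 3224 at 96 h, was past this cap, and farther at 0 h. Median counts per nucleus went from 26005 at 0 h to 11629, 4841 and 3681.5. The part of the cap and of depth in this picture was not tested.

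With the promoter alone (peaks that touch 1000 bp on either side of the start), 8 members passed and the medians were -0.03, 0.02 and 0.55, against -0.17, -0.13 and 0.14 over 17999 genes. Whole peaks are counted, so for Jun, Junb, Fos and Egr1 this was the same peak, with the same counts, as in the gene window. Their promoter values are therefore no separate measure. No member was past 2-fold at 48 h, where 6.23% of genes were higher and 3.39% lower, nor at 72 h, where 7.94% were higher and 10.5% lower. At 96 h Fos (1.11) and Fosb (1.07) were, with 6.73% of genes higher and 14.4% lower. These calls depended on the scaling: with the median of all genes set to 0, no member was past 2-fold higher in the promoter and 1 in the gene window, and per count in shared regions 1 was in each. For the gene window they also depended on other settings. At 96 h, 20 kb on either side gave 0 higher and 0 lower, and a pseudocount of 5 CPM gave 1 higher and 0 lower.

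**Figure D2:**
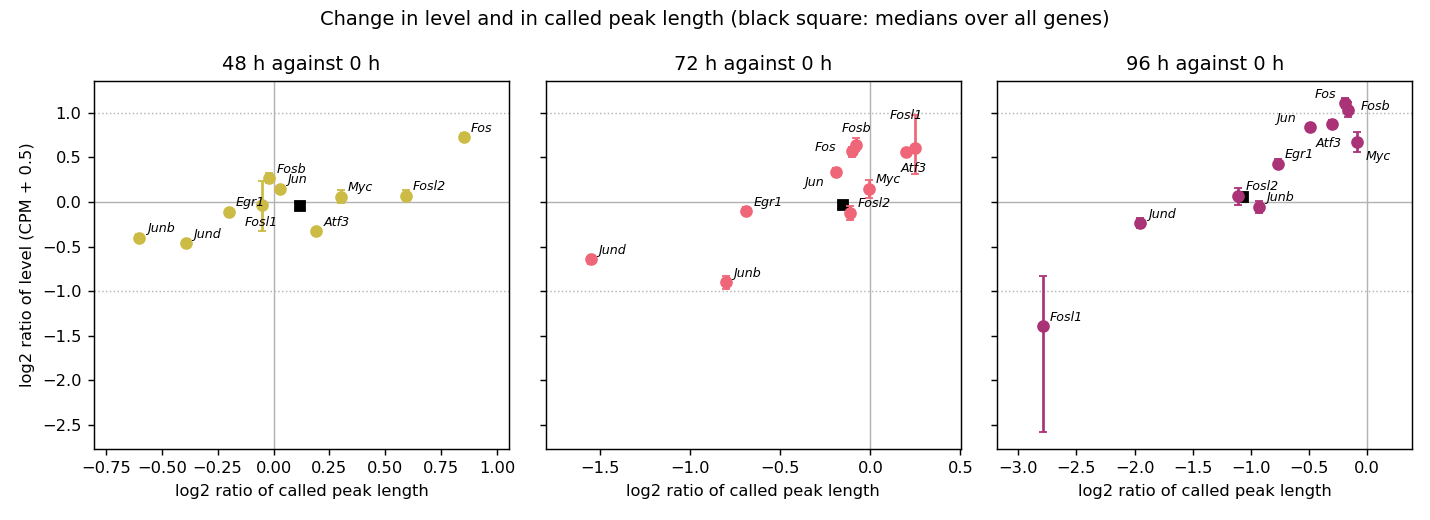
Log2 ratio of level (y axis, 95% counting intervals) against log2 ratio of called peak length (x axis, own scale in each panel) for the 10 members, 1 panel for each of 48, 72 and 96 h against 0 h, with dotted lines at 2-fold and a black square at the medians over all genes. At 96 h Fos, Fosb, Jun, Atf3 and Myc lie high with little loss of length, while Jund, Fosl2 and Fosl1, at length ratios of -1.95, -1.11 and -2.79, lost most of their length.

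Called length bears on the 96 h comparison. Per kb of called peak, the median over all genes was 1.23 at 96 h and that of the members 1.19, so that 3 of 10 members lay above the median of all genes. By this measure 8 members were at least 2-fold higher at 96 h, and so were 69.1% of all genes. At 48 h the members' median per kb was -0.03 against -0.20 and at 72 h 0.47 against 0.17, with 7 of 10 members above the median of all genes each time. Where the later promoter peak lies wholly inside the 0 h peak, the ratio of the sums is a lower bound for the ratio over the later interval. This held at 96 h for 8 members, and the bound was 2.16-fold for Fos and 2.10-fold for Fosb, or 2.08 and 1.98 at the lower ends of their counting intervals; 5.39% of 16726 such genes were past 2-fold. Among these 8, Jun (1.79), Myc (1.59) and Egr1 (1.35) followed, and for Junb, Jund and Fosl2 the bound was below 1 (0.963, 0.836 and 0.765). Atf3 is not among the 8, which were taken at GENCODE starts. At its RefSeq start the 96 h peak of Atf3 also lay inside its 0 h peak, with 983 against 530.1 CPM, a log2 ratio of 0.89. The bound holds for this scaling only: per count in regions shared by all libraries, the gene window log2 ratios of Fos and Fosb were 1.01 and 0.93.

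**Figure D3:**
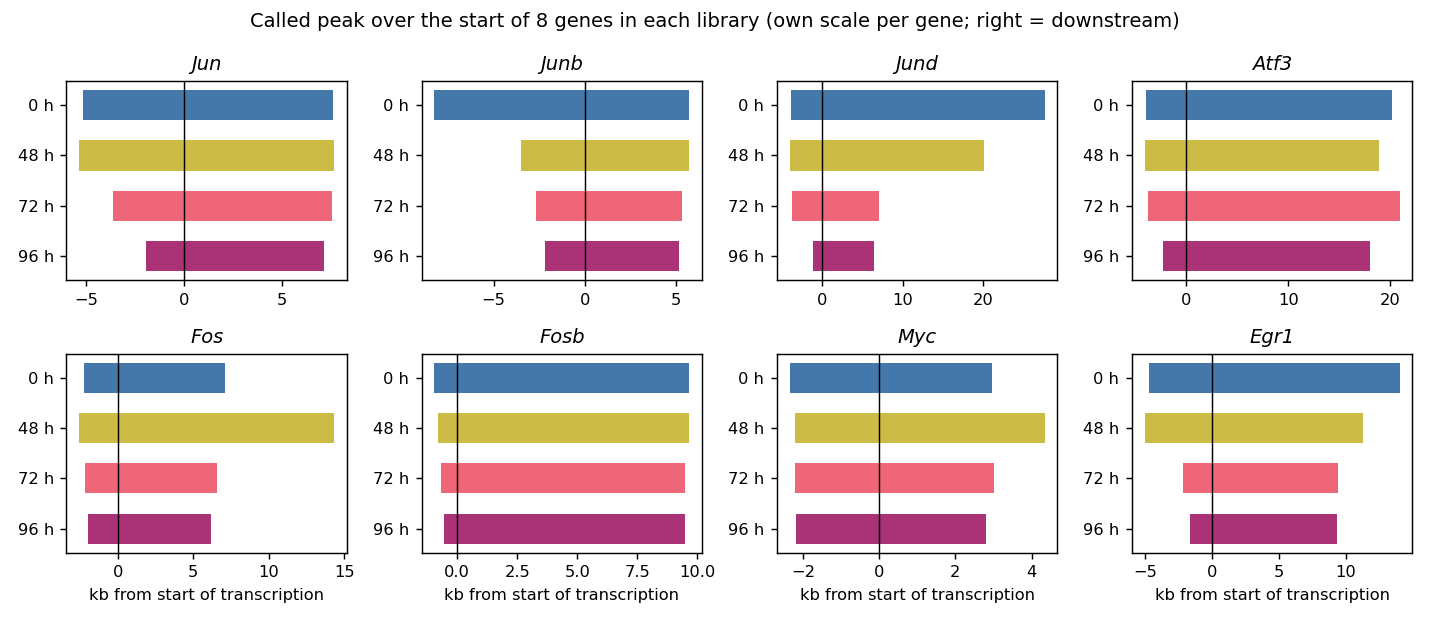
Extent of the called peak over the start of 8 members in each library (rows, hours after PHx), in kb from the start of transcription, with downstream to the right and an own x scale for each gene. The Fos peak reached farther downstream at 48 h than in the other libraries, and the Junb and Jund peaks shortened after 0 h.

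Between 72 and 96 h, 9 of 10 members were higher in the later library, as were 56.1% of all genes. The members' median log2 ratio was 0.45, against 0.07 over all genes. Junb had the largest of these, at 0.84 (0.75 to 0.93), followed by Fos (0.55), Egr1 (0.53), Myc (0.52) and Jun (0.50). The 96 h promoter peaks lay inside the 72 h peaks for 16848 genes, with a median of 0.29, and Junb exceeded 99.3% of them. Fosl1, at -2.00, went the other way. Between 48 and 72 h the median was 0.05 against 0.03, and Atf3 (0.89) had the highest and Junb (-0.49) the lowest ratio.

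Genes of the heat shock response, which encode chaperones and are known to be induced by cell stress, differed along with these times. They were looked at after their values were seen, because Hsph1 was among the leading genes of the clusters that hold most 72 and 96 h nuclei, and Dnajb1 among those of the 96 h cluster. Hsph1 was at 30.8 CPM at 0 h, 29.1 at 48 h, 260.0 at 72 h and 276 at 96 h, but its called length went from 2451 to 4003, 26138 and 23439 bp, and per kb it was not higher later (12.6, 7.28, 9.95 and 11.8 CPM). Hsp90aa1 was at 48.1, 124, 287 and 301 CPM (5.98, 7.13, 16.5 and 20.3 per kb). Dnajb1 was at 79.3, 163, 317 and 417 CPM with a steadier length (7.04, 13.7, 24.0 and 37.3 per kb). Of 7 such genes, Hsph1, Dnajb1, Hsp90aa1, Hspa8 and Hspa1b were at least 2-fold higher at 96 h than at 0 h in summed CPM, against 5.94% of all genes. Hspa8 and Hspa1b were near the threshold, at log2 ratios of 1.01 and 1.03. Hspb1 and Hspa1a were not past it, with log2 ratios of -0.31 and -0.64. Per kb they were at 1.16 and 1.41, where the median over all genes was 1.23. At 48 h Dnajb1 and Hsp90aa1 were past 2-fold as well, with log2 ratios of 1.04 and 1.36, against 6.41% of all genes. Their part in the levels of the members was not tested. With 1 library at each time, the handling of a preparation and the time after PHx cannot be told apart, for these genes and for the members alike.

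Nuclei were clustered on regions with a peak in every library. Hepatocyte-like nuclei, in whose clusters none of 12 hepatocyte markers was low, numbered 2486, 3638, 3930 and 3130 at 0, 48, 72 and 96 h. They came from different clusters at each time, and Saa2 was among the leading genes of both clusters that hold most 48 h nuclei. In cluster 0, which held 3705 nuclei at 72 h, 1 of 4 myeloid and 2 of 5 stellate markers were high. A shallow cluster of 1286 nuclei, 1196 of them at 0 h, had hepatocyte markers but stayed unnamed. With hepatocyte-like nuclei alone, the members' medians and their counts of 2-fold changes kept their values within counting error.

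Clusters 6 and 7, with 295, 215, 288 and 81 nuclei in the 4 libraries, were low in hepatocyte markers: these summed to between 773 and 1089.7 CPM, against 4521 to 6623 CPM in hepatocyte-like nuclei. In cluster 6, 6 of 9 detected endothelial, 2 of 3 lymphocyte and 2 of 7 stellate markers were high. In cluster 7, 2 of 4 myeloid, 2 of 9 endothelial, 1 of 6 stellate and 1 of 7 cholangiocyte markers were, and neither cluster was named. Endothelial markers summed to 272 to 1032 CPM in the pair of clusters and to 248 to 396 in hepatocyte-like nuclei. Within a library both classes share the same peaks, so called length does not enter this contrast. The classes were clustered on the same counts, so the values below are a description.

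Myc and Fosl2 were higher in the sum of these clusters in all 4 libraries. Myc was at 113, 102, 152 and 193 CPM there and at 60.9, 64.1, 66.5 and 97.9 CPM in hepatocyte-like nuclei, a log2 ratio of 0.89, 0.67, 1.20 and 0.98. Only the 96 h interval (-0.03 to 1.83, from 22 counts) reached 0. Fosl2 was at 202, 272, 211 and 202 CPM against 124, 128, 112 and 129, with log2 ratios of 0.71, 1.09, 0.92 and 0.65, and its 96 h interval (-0.34 to 1.47) likewise reached 0. The median over all genes was 0.36, 0.27, 0.19 and 0.21, so both genes lay above it each time. The upper quartile over all genes was 0.85, 0.78, 0.71 and 0.97, and Myc at 48 h and Fosl2 at 0 and 96 h lay below it. In cluster 7 alone Fosl2 had 2 counts at 96 h, or 52.9 CPM (1.34 to 295).

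Jun, Atf3 and Egr1 were lower in the sum of these clusters in all 4 libraries. Egr1 had log2 ratios of -0.82, -0.25, -0.80 and -1.19, Atf3 of -0.71, -0.30, -0.52 and -0.78, and Jun of -0.41, -0.71, -0.38 and -0.81. None of these intervals reached 0. The lower quartile over all genes was -0.36, -0.39, -0.42 and -0.81. Egr1 at 48 h, Atf3 at 48 and 96 h and Jun at 72 h lay above it, and Jun at 96 h was level with it. In cluster 6 alone, however, Egr1 was at 482 CPM at 48 h (379 to 606), not below the 437 CPM of hepatocyte-like nuclei. Jun was still at 308, 279, 404 and 422 CPM in them. Fos, Fosb, Junb and Jund had both signs over the libraries, so no direction is given, and Fosl1 had only 20, 8, 10 and 0 counts there. In hepatocyte-like nuclei the courses of the members were those of the whole libraries: Jun was at 409, 456, 525 and 739 CPM, Fos at 187, 312, 281 and 408.

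**Figure D4:**
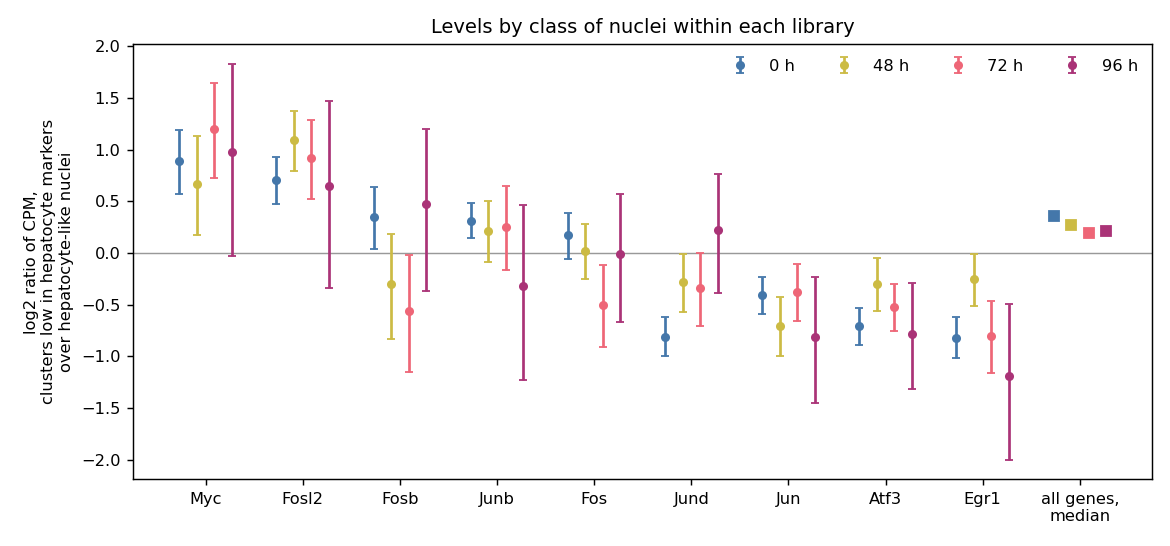
Log2 ratio of CPM in clusters 6 and 7 over hepatocyte-like nuclei of the same library (y axis) for 9 members, with 95% counting intervals and 1 colour per library, and the median over all genes as squares at the right. Myc and Fosl2 lie above 0 and Jun, Atf3 and Egr1 below 0 in all 4 libraries; Fosl1 is left out for its few counts.

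Other genes of the pathway were taken from lists, read against the shares of all genes given above. Of 24 other bZIP factors, the possible partners or rivals of AP-1, only Batf3 was at least 2-fold higher at each time. It was at 2.77, 9.61, 18.2 and 9.37 CPM, or 2.45, 3.94, 5.76 and 10.0 per kb. Maff, a small Maf protein, was lower, at 107, 82.0, 52.4 and 33.6 CPM with called length going from 19220 to 3479 bp (5.55, 4.50, 5.38 and 9.66 per kb). Cebpa, which encodes a factor of the mature hepatocyte, was at 267, 171, 108 and 157 CPM (17.2, 10.9, 11.9 and 18.4 per kb) and was the second gene past 2-fold lower at 72 h. The median of the list was -0.19, -0.22 and -0.17.

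Among 22 kinases and serum response factors upstream of the members, none was 2-fold higher in the gene window at any time; 0, 2 and 2 were lower, and medians were -0.12, -0.18 and -0.13. Of 34 other immediate early genes, 1, 4 and 3 were higher and 2, 4 and 2 lower at 48, 72 and 96 h, with medians of -0.04, -0.01 and 0.27. Ccn2, a matricellular growth signal, was at 3.10 CPM at 0 h and at 8.65, 15.3 and 7.97 later in 834, 1802, 1744 and 633 bp. Klf10, induced by TGF-beta, was at 206, 67.4, 85.0 and 122 CPM, but its called length went from 15282 to 5107, 4684 and 3864 bp, and per kb it was not lower at 72 and 96 h (13.5, 13.2, 18.2 and 31.6). Per1, a clock gene, was at 108, 70.3, 35.4 and 37.8 CPM, or 7.98, 5.83, 5.91 and 11.7 per kb. The other immediate early genes thus had 2-fold changes in both directions at each time, while the 96 h median of 0.27 lay above the 0.06 of all genes.

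The Myc network (12 partners and rivals of Myc) had 0, 1 and 0 genes lower, none higher, and medians of -0.34, -0.12 and 0.03. Of 15 Myc target genes, none was higher and 0, 3 and 3 were lower, with medians of -0.16, -0.58 and -0.09. Ldha, which makes lactate, was at 118, 105, 56.5 and 68.9 CPM (6.23, 4.96, 5.28 and 11.3 per kb). Eif4a1, a translation factor, was at 101, 103, 35.1 and 39.7 CPM (8.45, 8.73, 6.77 and 22.4 per kb), and at 0 and 48 h its values were those of its neighbour Cd68. Of 24 AP-1 target genes 19 passed, and 3, 3 and 1 were higher and 0, 0 and 2 lower, with medians of 0.17, 0.39 and 0.26. Cdkn2a, a cell cycle inhibitor, was at 9.96, 18.6, 27.4 and 24.6 CPM, or 4.27, 4.63, 6.19 and 14.6 per kb. Hmox1, which degrades heme, was at 19.3, 50.4, 48.9 and 20.8 CPM in 1751, 11709, 9336 and 799 bp, and its direction at 48 and 72 h turned per kb (log2 ratios of -1.36 and -1.07). Hepatocyte markers had medians of 0.28, -0.44 and 0.02 over the same 3 times. Of the other marker lists, stellate (6 passed) had 0.33, 0.64 and 0.71, and cholangiocyte (6) 0.38, 0.49 and 0.36. Myeloid markers (5) had 0.45, 0.30 and 0.32, endothelial (10) 0.23, 0.29 and -0.22, and lymphocyte (4) 0.56, 0.10 and -0.03.

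The genes most like a member in course were found by the Euclidean distance of log2 CPM, centred over the 4 libraries, among protein-coding genes. Fos had few neighbours: 13 genes lay within 0.2, the nearest being 1700001L19Rik (0.0582), Nfkbiz (0.121) and Abcb1b (0.129). Nfkbiz was at 144, 245, 196 and 311 CPM (7.10, 9.92, 9.35 and 17.6 per kb). Jun had 422 genes within 0.2 (nearest Hmgb3, Mcm8 and Ccdc146), Myc 539 (Dimt1, Mybl1 and Tma16) and Egr1 896 (Virma, Xk and Bbs12). Jun, Myc and Egr1 thus had more genes close to them in course than Fos had, and 4 points allow no more than this description.

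AP-1 sites themselves were counted in the DNA under the 0 h peaks of the members. TGACTCA, read on both strands, occurred 30087 times in all 0 h peaks, or 0.196 times per kb. The peaks of 7 of the 10 members held fewer per kb than this, from 0.0534 for Egr1 to 0.191 for Jund. These densities rest on few sites, from 1 (Jun, Fos, Myc and Egr1) to 6 (Jund), and Jund and Myc (0.188) were close to 0.196. The peaks of Fosl1 (2 sites in 1545 bp, 1.29 per kb), Junb and Fosb (0.269) held more. The Junb peaks held 7 sites (0.499 per kb), of which 4 lay together 6628 to 7036 bp upstream of the start, outside any gene record, in DNA that no later library called as part of this peak. They are shown because this stretch belonged to the Junb peak at 0 h only, and an intronic site each of Atf3 and Fosb is shown because a peak of every library covered it. Whether a separate later peak covered the Junb stretch was not checked. Each line gives the site in capitals with 11 bases on either side, from GRCm38.p6 on the strand of the gene.
Junb site 1, chr8:84985332-84985360: aggggctttttTGACTCAgaacaagcggg
Junb site 2, chr8:84985646-84985674: ttccctgtgtaTGACTCAggcccctgagg
Junb site 3, chr8:84985676-84985704: ctctgcctgagTGACTCAtgcctcgcggc
Junb site 4, chr8:84985740-84985768: cagggcgtgcgTGACTCAggccagccctg
Atf3 intron site, chr1:191182774-191182802: gtgcgcggaggTGACTCAcactctggcga
Fosb intron site, chr7:19305863-19305891: gcattacctacTGACTCAacaaactgtag
The Atf3 site lay in an intron 545 bp downstream of the RefSeq start, and the Fosb site in an intron 4174 bp downstream of the start. Jun held 1 site in 12738 bp of peak, in an intron of Junos 4933 bp upstream of its start, and Fos 1 in 9366 bp, in an untranslated part of its own gene.

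Regions with TGACTCA were then compared with the rest, over 63948 regions that had a peak in every library and a mean of at least 1 CPM. The median log2 ratio to 0 h of 18382 regions with the site was 0.01, -0.01 and 0.02 at 48, 72 and 96 h, and that of 45566 regions without it 0.05, 0.17 and 0.25. Regions with the site were also longer (median 2201 against 1222 bp). The 16180 regions with the E-box CACGTG, a Myc-type site, gave nearly the same: -0.06, -0.05 and 0.02, at a median length of 2393 bp. In regions whose called length differed by under 10% from 0 h, the site went with -0.11 against -0.05 at 48 h, 0.22 against 0.34 at 72 h and 1.40 against 1.48 at 96 h, the last over 326 and 1381 regions. At all 3 times, by both selections, the median of regions with the AP-1 site was thus not above that of regions without it. The second selection is no independent check: at 96 h the regions it kept had medians far above the 0.02 and 0.25 of all regions. The values are descriptions, since regions of 1 library are not replicates.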

How the data were processed

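scATAC-Seq was measured in 4 libraries of mouse hepatocytes. The deposited files were count matrices of transposase cut sites per peak and barcode, with peaks and barcodes, made by the authors with Cell Ranger ATAC against mm10, per the labels (software version 1.1.0 in the matrix headers). Peaks were called in each library separately. The members and all gene lists were chosen with earlier results of these data known.

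Counts in peaks overlapping the gene body and 2000 bp upstream, or 1000 bp on either side of the start (GENCODE vM21), were summed over barcodes with at least 1000 counts and scaled to CPM. Ratios were log2 of (CPM + 0.5), and a gene counted as different at 2-fold; all genes with a mean of 5 CPM gave the background. Window sums, intervals and ratios were tested on simulated data. Nuclei were clustered with TF-IDF, truncated SVD, 30 nearest neighbours and Leiden at resolution 0.5 (scikit-learn 1.9.0, leidenalg 0.10.2); doublets were not removed. Context genes were named if past 2-fold in the same direction in gene window and promoter in at least 1 contrast, at most 4 per list; for Jun, Fos, Myc and Egr1 the 3 nearest genes were named. Promoter sequences were from RefSeq, GRCm38.p6, and all peaks lay within its chromosomes. Totals per library, from 14935507 to 136582768 counts, set the counting intervals. Alternatives changed the count minimum, deepest nuclei, binarisation, scaling, windows, pseudocount, background filter and class of nuclei.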

Additional observations from a re-analysis of the deposited data

How the results depend on the processing

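Medians and counts of the members kept their values, within counting error or 1.5 times, with other minimum counts, without barcodes of several libraries, in hepatocyte-like nuclei with or without the shallow cluster, with 5000 bp upstream, a promoter of 500 bp on either side, the RefSeq start, and a pseudocount of 0.1 CPM. Of 264 values under all alternatives (these and the medians of regions with TGACTCA), 220 stayed, 36 moved and 8 moved across or to 0; the cause was not tested where none is given. No paired analysis was possible because each group has 1 library. For Jun, Junb, Fos and Egr1 the promoter windows hold the same whole peak as the gene window, so their values repeat.

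Values are for 48, 72 and 96 h in turn. Binarised counts, which count each peak once per nucleus, gave gene window medians of 0.46, 1.02 and 1.43, with 5 members at least 2-fold higher at 72 h and 7 at 96 h, and promoter medians of 0.46, 1.06 and 1.42, with 4 and 6. The medians of all genes in the gene window were then -0.06, -0.10 and -0.01, with 6.79% and 4.19% at least 2-fold higher at 72 and 96 h. Junb, Jund, Atf3 and Egr1 turned sign, as given beside them, and so did Fosl2 at 72 h (0.13). Median counts per nucleus fell along the libraries from 26005 to 3681.5. Their part, and that of the cap at once per nucleus, was not tested. Scaling to shared regions gave 0.09, 0.31 and 0.44 (1 higher at 96 h), and 0.05, 0.09 and 0.44 (1 higher) for the promoter. With the median of all genes at 0, 1 member was higher at 96 h, and the promoter gave 0.15, 0.15 and 0.41, with 0 higher. Per kb of called peak, which follows from its length, the medians were -0.03, 0.47 and 1.19, with 8 higher and 0 lower at 96 h and Fosl1 at 1.15, and 0.00, 0.56 and 1.26 with 6 higher for the promoter. A window of 20 kb on either side gave 0.06 at 48 h and 0.10 at 72 h, with 0 higher and 0 lower at 96 h. A pseudocount of 5 CPM left 1 higher and 0 lower at 96 h. Peaks that lie mostly inside the window, which leaves out the broad peaks and with them some members, gave 0.56 at 72 h and 0.78 at 96 h. Those medians thus cover fewer members than the main ones. Without the deepest 5% of nuclei the 48 h median was -0.01. Regions with TGACTCA and a called length under 10% apart gave -0.11, 0.22 and 1.40. Depth limits Fosl1 at 96 h (25 counts) and clusters 6 and 7 at 96 h (81 nuclei).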
